A study of Pilatotrama ljubarskyi with 14 samples.

Results

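Of the 878 genes in the deposited table for Trametes ljubarskyi, a wood-decaying white-rot fungus, 43 had their lowest level on aspen wood and no single substrate on which they stood out as high. They were chosen on the authors' mean log2 normalized read counts for 5 carbon sources. The lowest of the other 4 means had to exceed the aspen mean by at least 0.5, the highest mean had to exceed the second highest by less than 0.4, and at least 1 mean had to reach 4. All 5 columns were used for the choice, so the low level on aspen is a description of these genes and is not tested below. The table gives gene numbers without names or functions, and no role can be given to any of the 43.

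Strain BRFM1659 was grown for 3 days at 30 °C in shaken liquid medium, and polyA RNA of the mycelium was sequenced. The aspen cultures (3 libraries) held 15 g/l of milled aspen, of 1 mm, and maltose in an amount that is garbled in the labels and could not be read in full. Maltose alone at 20 g/l was the carbon source of 1 group (3 libraries). Microcrystalline cellulose (Avicel, 3 libraries), wheat straw (3 libraries) and pine wood (2 libraries) were each given at 15 g/l with maltose at 2.5 g/l, the straw and the pine as fragments under 2 mm. All groups shared the mineral medium, yeast extract and thiamin. Wood species, the milling and any difference in soluble sugar therefore cannot be told apart in a comparison with aspen. Whether each library had its own culture is not stated in the labels, so p-values and errors measure the spread between libraries, which may be technical.

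White-rot fungi break down lignin, cellulose and hemicelluloses with secreted enzymes, and adjust which enzymes they make to the sugars and plant polymers around them. Aspen is a hardwood, with a lignin of guaiacyl and syringyl units and a hemicellulose made mainly of acetylated xylan. Pine is a softwood, with a guaiacyl lignin and a larger share of mannan, and wheat straw is a grass material rich in arabinoxylan.

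Reads of single libraries were recovered from the deposited means for 3953 of 4390 values, 90.0%. The aspen libraries had relative depths of 1.30, 1.07 and 1.04, and the others lay between 0.646 and 1.18. Summed over recovered genes, a library held at least 705007 and at most 2921286 reads. The genes recovered differed by substrate, with 878 on pine and 741 to 786 elsewhere, so these sums do not measure depth. Within a substrate, Pearson's r across the 680 genes recovered in all 14 libraries lay between 0.964 and 0.993. Maltose library B stood apart, correlating at 0.965 and 0.964 with A and C, while A and C correlated at 0.992. Among the 43 genes, 32 were recovered on maltose, and in 8 of these library B was the highest of the maltose libraries by at least 0.5 on the log2 scale. The same held for 88 of the 786 genes recovered on maltose. Of the 43 genes, 31 were recovered in all 14 libraries, 40 on aspen and 43 on pine.

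**Figure D1:**
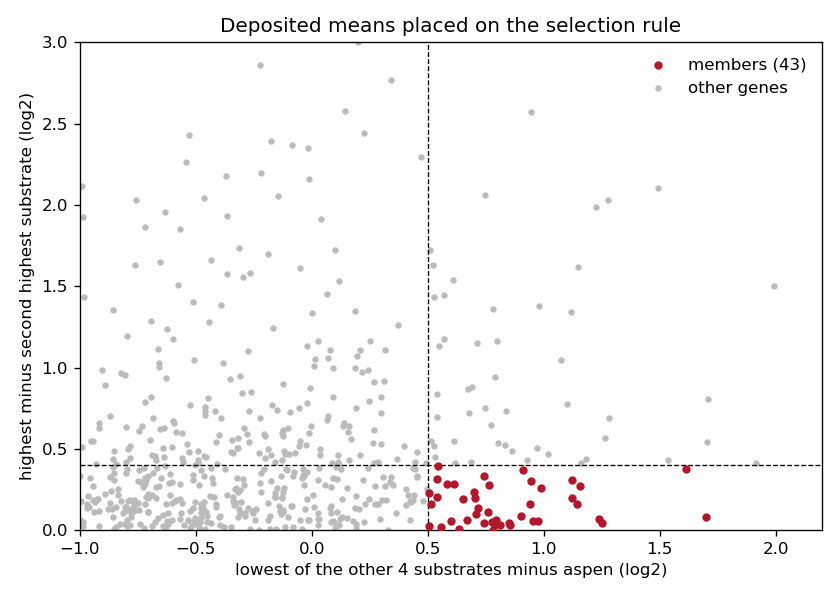
Each point is a gene of the deposited table, placed by how far the lowest of the other 4 substrate means lay above the aspen mean (horizontal axis, log2) and by the highest minus the second highest mean (vertical axis, log2), with dashed lines at the limits of 0.5 and 0.4. The 43 selected genes fill the lower right corner out to a gap of 1.70, with a median of 0.78, and genes beyond the axes are not drawn.

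The gap below the next lowest substrate ran from 0.50 to 1.70, with a median of 0.78, which is 1.71-fold on the scale of normalized reads plus 1. It was at least 1 in 8 genes. Against the mean of the other 4 substrates, aspen was lower by 0.78 to 2.40 on the log2 scale, with a median of 1.22. The choice was close for several genes. Gene 963956 had a gap of 0.50 and gene 970592 of 0.51, just inside the limit, while genes 976104 and 1058099, with gaps of 0.499 and 0.481, were just outside. On the limit for a single peak, genes 1112745 and 950324, with a highest minus second highest value of 0.39 and 0.37, were just inside. Genes 968942 and 1120294, with 0.412 and 0.414, were just outside. In all, 98 genes were lower on aspen than on every other substrate by at least 0.5. The 55 left out for their single peak were highest on maltose in 37, on cellulose in 11, on pine in 6 and on wheat straw in 1.

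The same rule, with another substrate in the place of aspen, was met by 119 genes for maltose, 13 for cellulose, 8 for pine and 6 for wheat straw. Among the 4 cultures with a solid, a shared low on 1 material was thus found most often for aspen on the deposited scaling, as a count with no test. The aspen count was 34 after the median shift given below and 20 after quantile normalization. The counts for the other substrates were not recomputed with those scalings. The median gap was 0.78 for the 43 aspen genes, against 1.13 for the 119 maltose genes, 0.72 for cellulose, 0.82 for pine and 0.68 for wheat straw. For maltose, 70 of the 119 genes had a gap of at least 1, a size reached by 8 of the 43 for aspen. In 35 of the 43 genes, aspen was thus less than 2-fold below the next substrate.

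**Figure D2:**
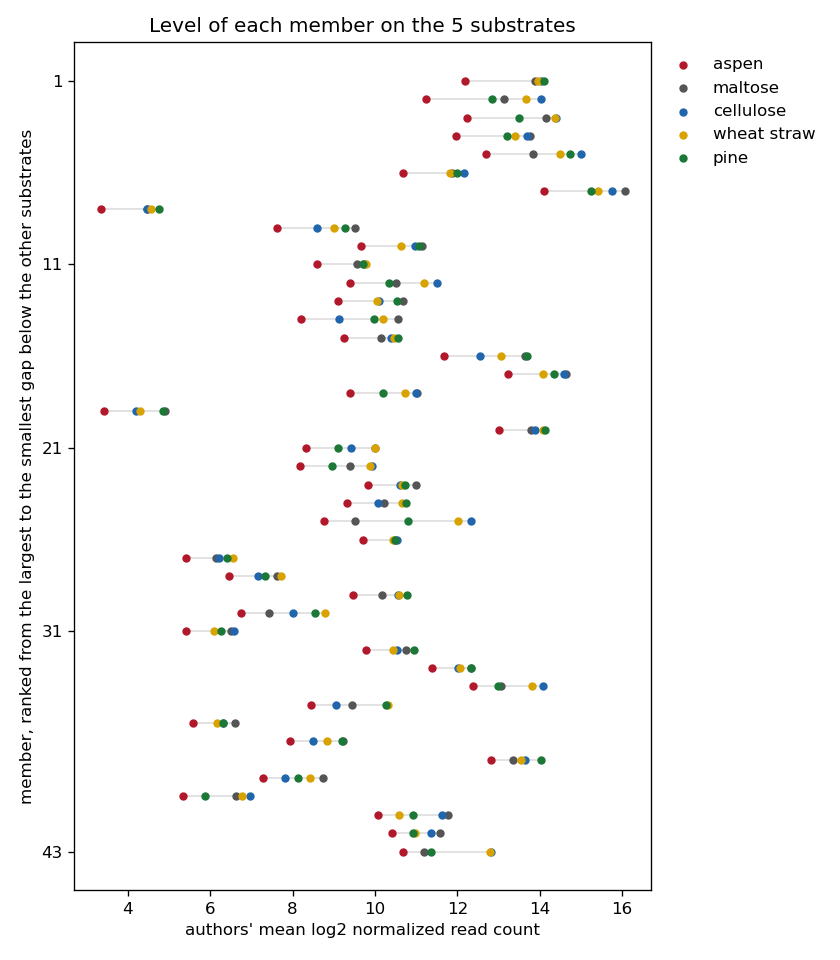
The authors' mean log2 normalized read count (horizontal axis) of each of the 43 genes on the 5 substrates, in rows from the largest gap at the top to the smallest at the bottom. The aspen points form the left edge of every row, as the choice requires, and lie between 3.34 and 14.11, while the order of the other 4 substrates changes from row to row.

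Genes of the 43 were found at all levels of the table. Their aspen means lay between 3.34 and 14.11, with a median of 9.40, against 9.15 for all 878 genes. The medians of the 43 were 10.56 on maltose, 10.57 on cellulose, 10.58 on wheat straw and 10.72 on pine, so that the 4 other substrates had nearly the same median. The aspen mean was under 6 in 6 genes, from 6 to 10 in 21 and at least 10 in 16. Of the 8 genes with a gap of at least 1, 7 had an aspen mean of at least 10, and of the 35 with a smaller gap, 9 did. Across the 43 genes the gap and the mean level had a Spearman rho of 0.30 and a Pearson r of 0.36. Genes are not independent replicates, and both measures share the aspen value. In extracts of whole mycelium, fewer expressing cells and less RNA per cell cannot be told apart.

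Gene 650824 had the largest gap. Its means were 12.18 on aspen, 13.88 on maltose, 14.02 on cellulose, 13.95 on wheat straw and 14.11 on pine. Aspen stood 1.70 below the next substrate, a 3.25-fold difference, while the other 4 means lay within 0.22 of each other. Its reads were 5723, 5144 and 4943 in the aspen libraries and 16945 and 11280 in the pine libraries, which after scaling gave log2 values of 12.10, 12.23 and 12.22 on aspen against 14.12 and 14.09 on pine. The aspen libraries were close together, and each lay well below both pine libraries. On the other 3 substrates this gene was too high for its reads to be recovered.

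Gene 950324 had the next largest gap, 1.61, with means of 11.23 on aspen, 13.14 on maltose, 14.04 on cellulose, 13.66 on wheat straw and 12.85 on pine. Its log2 values were 11.26, 11.20 and 11.24 in the aspen libraries, against 12.93 and 12.76 in the pine libraries. Unlike gene 650824 it also differed among the other substrates, with pine 1.19 below cellulose.

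Among genes recovered in every library, gene 1034746, named after its values were seen, had the largest gap, 1.14. Its log2 values were 10.72, 10.63 and 10.67 on aspen, 11.90, 11.79 and 11.93 on maltose, 11.97, 12.33 and 12.15 on cellulose, 11.81, 11.82 and 11.81 on wheat straw, and 11.89 and 12.09 on pine. The 3 aspen libraries lay more than 1 below the lowest of the 11 others. The most abundant of the 43 on aspen was gene 1053955, with means of 14.11 on aspen, 16.07 on maltose, 15.76 on cellulose, 15.40 on wheat straw and 15.24 on pine. Its reads were recovered on pine alone, with 38653 and 23692. Gene 936307 was next, at 13.22 on aspen against 14.63 on maltose, 14.59 on cellulose, 14.07 on wheat straw and 14.35 on pine.

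At the other end, gene 647137 was read 15, 12 and 6 times on aspen. Other libraries gave 20, 17 and 27 reads on maltose, 35, 18 and 21 on cellulose, 25, 22 and 18 on wheat straw, and 34 and 12 on pine. Its mean log2 value was 3.34 on aspen and between 4.46 and 4.74 elsewhere, and no aspen library reached the value of any other library after scaling. For gene 38604 the reads were 10, 13 and 10 on aspen, 33, 21 and 35 on maltose, 22, 24 and 14 on cellulose, 23, 25 and 10 on wheat straw, and 19 and 25 on pine. Its aspen values of 3.12, 3.71 and 3.41 lay just below the lowest others, 3.82 in wheat straw library C and 3.86 in cellulose library C. With so few reads counting error can be large, but its part in the spread of these genes was not tested.

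The recovered libraries of the 43 genes seldom overlapped between aspen and any other substrate. In 28 of the 31 genes recovered everywhere, every aspen library was below every other library, which held for 13.7% of the 680 genes recovered in all libraries. The rule used these means, and nothing is read from the difference. The 3 exceptions were genes 963956, 674631 and 797237, the last pair named after their values were seen. Gene 963956 had 10.44, 10.88 and 10.76 on aspen and 10.55 in maltose library C. Gene 674631 had 7.01, 7.34 and 7.48 on aspen and 7.09 in cellulose library B. Gene 797237 had 5.56, 4.86 and 5.83 on aspen and 5.79 in pine library B, and was the 1 gene of the 40 recovered on aspen whose aspen libraries differed by more than its gap.

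Between the libraries of a substrate, the 31 genes recovered everywhere had a median SD of 0.12 on aspen, 0.26 on maltose, 0.16 on cellulose, 0.09 on wheat straw and 0.14 on pine. Over all 680 such genes the medians were 0.13, 0.25, 0.23, 0.14 and 0.13 in the same order.

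In the fit over all genes, 28 of the 43 were called lower on aspen than on maltose, at a limma adjusted p under 0.05 and a log2 difference of at least 1, where 22.8% of the 867 tested genes were called. Against cellulose 24 were called lower (24.5% of tested genes), against wheat straw 29 (17.2%) and against pine 26 (16.5%). Over all tested genes, 63 were called higher and 143 lower on aspen than on pine, and 87 and 95 after the median shift given below. These contrasts chose the genes, and the 4 comparisons share the aspen libraries. The median differences of the 43 were -1.18 against maltose, -1.13 against cellulose, -1.21 against wheat straw and -1.17 against pine. Over all tested genes they were 0.09, -0.21, -0.18 and -0.23 in the same order. The lowest values against single substrates were -2.35 for gene 38420 and -1.97 for gene 942459 against maltose, -3.57 for gene 971969 and -2.81 for gene 950324 against cellulose, -3.24 and -2.43 for the same pair against wheat straw, and -2.05 for gene 394676 and -2.04 for gene 971969 against pine.

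**Figure D3:**
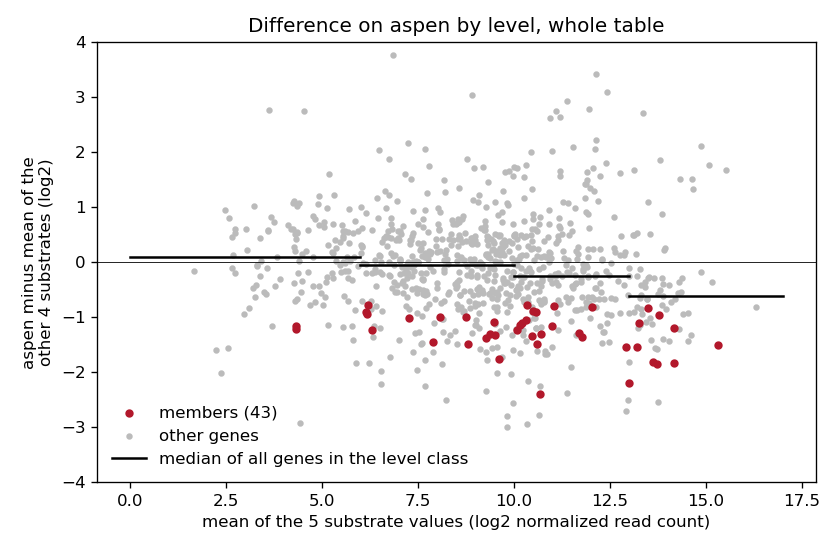
The aspen mean minus the mean of the other 4 substrates (vertical axis, log2) against the mean level over the 5 substrates (horizontal axis, log2 normalized read count) for each gene of the table, with black bars at the median of all genes in 4 level classes. The bars step down from 0.10 under level 6 to -0.61 above level 13, the 43 selected genes lie below them at every level, and the few genes beyond 4 in either direction are not drawn.

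The whole table was itself lower on aspen at high levels. Aspen minus the mean of the other 4 had a median of 0.10 over the 127 genes with a mean level under 6, -0.06 over the 402 from 6 to 10, -0.25 over the 273 from 10 to 13 and -0.61 over the 76 above 13. The share of genes that met the rule went the same way, with 2 of 127 (1.57%), 14 of 402 (3.48%), 18 of 273 (6.59%) and 9 of 76 (11.8%). Above level 13 the median gene was 0.28 lower on aspen than on maltose, 0.82 lower than on cellulose, 0.76 lower than on wheat straw and 0.84 lower than on pine. The 90th percentile of the columns was 12.76 on aspen, 12.70 on maltose, 13.52 on cellulose, 13.37 on wheat straw and 13.18 on pine. The part of this shift in the low aspen values of abundant genes such as 650824 and 1053955 was not tested.

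Scaling bears on the number of genes. Relative to the other groups, the median shift of aspen over the 680 genes recovered throughout was -0.22 for pine, -0.10 for wheat straw, -0.08 for cellulose and -0.02 for maltose. With these shifts removed, all 43 still had their lowest value on aspen, with gaps of 0.29 to 1.67 and a median of 0.68. A gap of at least 0.5 was kept by 35, and 31 met the whole rule, among 34 genes of the table that then did. When the 5 columns were quantile normalized to 1 distribution, 20 genes met the rule, 16 of them among the 43. Quantile normalization removes any shift that differs by level, such as the one above.

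Leaving out 1 library at a time, 39 to 46 genes met the rule, and 29 of the 43 met it whichever library was left out. A gene not recovered on a substrate kept its deposited mean there, so leaving out a library of that substrate could not remove it. Only 31 of the 43 were recovered on every substrate, and the 29 include genes not put to every case. All 43 stayed lowest on aspen in each of these cases. The smallest remaining gap was that of gene 963956 without maltose library B, 0.07, since its maltose values were 10.98, 12.06 and 10.55. Gene 971969 had a gap of 0.30 without that library, against 0.74 with it.

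**Figure D4:**
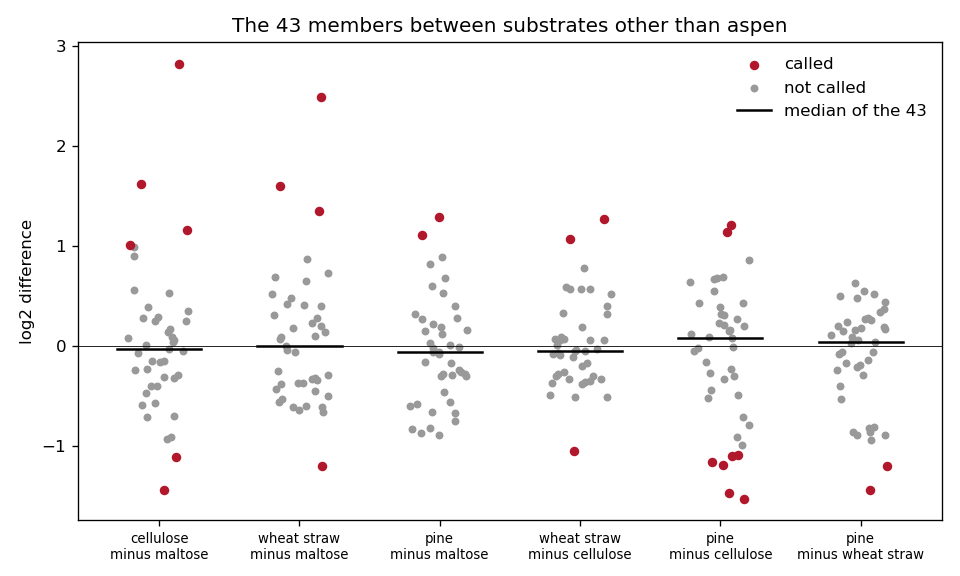
Log2 differences of the 43 genes in the 6 comparisons between substrates other than aspen (vertical axis), with genes called at a limma adjusted p under 0.05 and an absolute difference of at least 1 in red, others in grey, and the median of the 43 as a bar. The medians lie between -0.06 and 0.08 (-0.25 to -0.05 after the median shift, which is not drawn), and most genes lie within 1 of zero.

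Between the other 4 substrates most of the 43 genes were not called different, and their directions were mixed. The difference between the highest and lowest of the 4 means ran from 0.08 to 2.82, with a median of 0.68. It was under 0.5 in 12 genes, under 1 in 31 and at least 1 in 12. The gap below the others was larger than this range in 25 genes. The next lowest substrate was maltose in 12 genes, cellulose in 11, pine in 11 and wheat straw in 9. The highest was maltose in 15, cellulose in 12, pine in 10 and wheat straw in 6. The rule limits these differences, since it keeps out a gene with a single peak and any gene lowest on another substrate, so low counts of calls among the 43 are partly fixed by the choice.

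The flattest gene, 971772, was named after its values were seen. Its log2 values were 9.70, 9.64 and 9.76 on aspen, 10.31, 10.78 and 10.36 on maltose, 10.36, 10.49 and 10.73 on cellulose, 10.42, 10.53 and 10.39 on wheat straw, and 10.58 and 10.38 on pine. The means of the 4 others lay within 0.08 of each other, and the aspen libraries lay below all 11 of their libraries. Its largest difference among the 4, wheat straw minus cellulose, was -0.08 ± 0.14 (SE; limma adjusted p = 0.708), a difference smaller than its SE.

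Relative to maltose, 4 of the 43 genes rose and 2 fell on cellulose (26.0% of tested genes rose and 16.8% fell). On wheat straw 3 rose and 1 fell (28.3% and 19.3% of tested genes), and on pine 2 rose and 0 fell (29.6% and 18.0%). The pine count turned with the scaling. After the median shift, 1 of the 43 rose (gene 971969) and 4 fell on pine relative to maltose, namely genes 1053955, 18836, 242810 and 985844, each by 1.02 to 1.08 on the log2 scale and picked out after their values were seen. The spread of gene 1053955 came from the pine libraries alone. Over all tested genes the shift gave 224 rises and 178 falls on pine, in place of 257 and 156. The medians of the 43 were -0.03, 0.00 and -0.06, against 0.09, 0.16 and 0.33 over all tested genes. These 3 comparisons share the maltose libraries. Gene 971969 rose in all 3. It had 4931, 5461 and 7169 reads on cellulose, 4615, 4752 and 2801 on wheat straw and 1852 and 1070 on pine, against 605, 1339 and 476 on maltose, and its aspen libraries had 511, 530 and 443. After scaling, aspen and maltose were the low pair, pine lay between, and cellulose and wheat straw were high. The log2 difference from maltose was 2.82 ± 0.30 on cellulose (SE; limma adjusted p = 1.5e-06), 2.49 ± 0.30 on wheat straw (limma adjusted p = 3.93e-06) and 1.29 ± 0.33 on pine (limma adjusted p = 0.00322). Without maltose library B they were 3.27, 2.94 and 1.74. The maltose libraries of this gene had an SD of 0.77, against 0.37 on cellulose, 0.15 on wheat straw and 0.16 on pine. Each SE above pools 1 spread over the 5 substrates and does not reflect that of maltose alone.

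Gene 963956 had a like pattern at a higher level. Its reads were 7515, 9497 and 7417 on cellulose and 7857, 7377 and 5487 on wheat straw, against 2180, 4228 and 1384 on maltose, with 1807, 2017 and 1795 on aspen and 2157 and 1955 on pine. It rose by 1.63 ± 0.29 on cellulose (SE; limma adjusted p = 0.000181) and by 1.60 ± 0.29 on wheat straw (limma adjusted p = 0.000182) relative to maltose. Its maltose libraries had an SD of 0.78, against 0.20 on cellulose and 0.02 on wheat straw. The SE and adjusted p pool 1 spread over the 5 substrates and do not reflect that of maltose alone. Aspen, maltose and pine formed the low group, with cellulose and wheat straw above all of their libraries. Without maltose library B both rises were larger, 2.06 and 2.03. The other rises on cellulose were of genes 394676, by 1.16, and 948741, by 1.01, both without recovered maltose or cellulose reads. Their calls rest on the spread of the aspen and pine libraries and hold none from the substrates compared. Gene 948741 was named after its values were seen, and after the median shift its difference was 0.96, under the limit of 1.

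**Figure D5:**
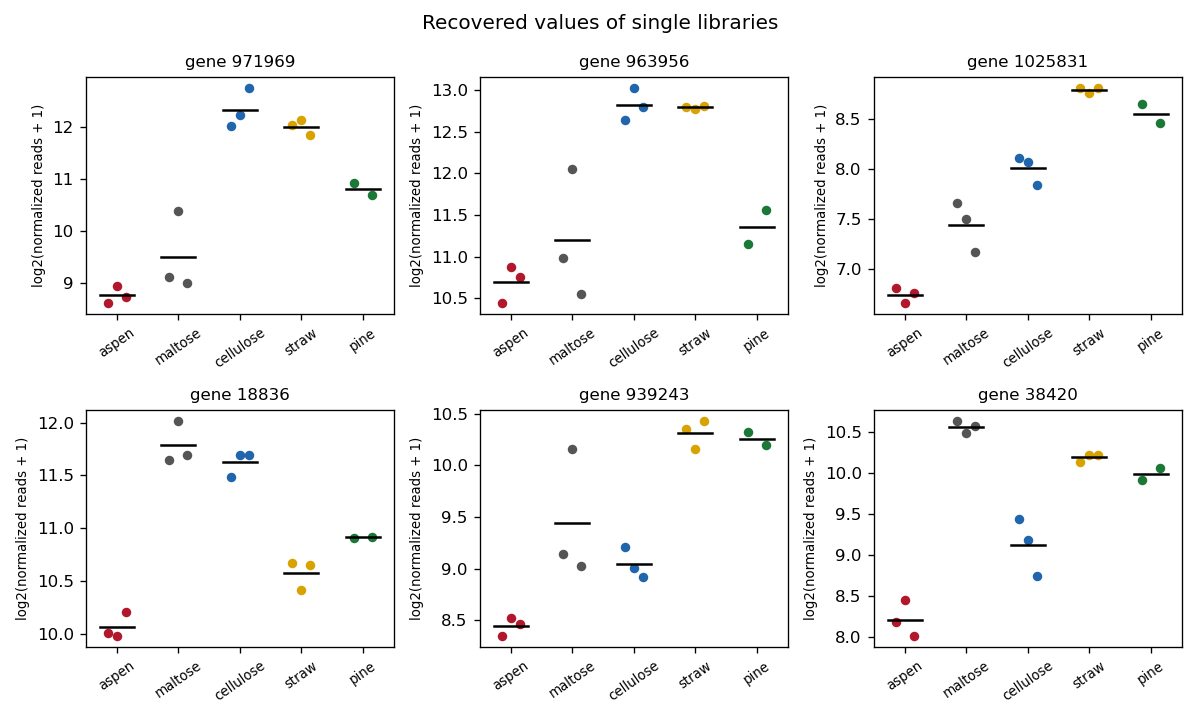
Log2(normalized reads + 1) of single libraries (points, vertical axis) and their mean (bar) on the 5 substrates, for 6 of the 43 genes that were called between substrates other than aspen. Each gene is lowest on aspen and has its own order of the others, and 1 maltose library lies above its group in genes 971969, 963956 and 939243.

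Gene 1025831 was graded over the substrates. Its log2 values were 6.80, 6.65 and 6.75 on aspen, 7.66, 7.50 and 7.16 on maltose, 8.11, 8.07 and 7.84 on cellulose, 8.81, 8.75 and 8.81 on wheat straw, and 8.65 and 8.45 on pine, with no overlap between any of the groups. It rose by 1.35 ± 0.14 on wheat straw (SE; limma adjusted p = 1.21e-06) and by 1.11 ± 0.16 on pine (limma adjusted p = 2.83e-05) relative to maltose. After the median shift the pine difference was 0.92, and without maltose library C it was 0.98, both under the limit of 1.

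The falls were of other genes. Gene 38420 had 819, 657 and 443 reads on cellulose against 1714, 1417 and 1396 on maltose, and its log2 value differed by -1.44 ± 0.16 (SE; limma adjusted p = 2.96e-06). On aspen it had 375, 372 and 266 reads. It was high on wheat straw (1231, 1248 and 907 reads) and pine (916 and 686 reads). Gene 942459 averaged 12.54 on cellulose against 13.65 on maltose, a difference of -1.12 ± 0.15 (limma adjusted p = 0.000103). The maltose and wheat straw reads of gene 942459 were not recovered, and its SE leaves their spread out. Gene 18836 had 1791, 1432 and 1225 reads on wheat straw against 3459, 4105 and 3050 on maltose, and fell by 1.20 (SE 0.13; limma adjusted p = 1.1e-06). It also fell by 1.05 on wheat straw relative to cellulose (SE 0.13; limma adjusted p = 1.84e-05), where it had 3385, 3758 and 3441 reads. Its aspen libraries, at 9.98 to 10.21, lay below wheat straw at 10.42 to 10.67 and pine at 10.91 to 10.92. Maltose and cellulose formed its high pair. Without wheat straw library B the fall relative to cellulose was -0.96, under the limit.

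Relative to cellulose, 2 of the 43 rose and 1 fell on wheat straw (8.65% and 12.0% of tested genes). On pine 2 rose and 6 fell (14.1% and 16.8%). After the median shift 2 rose and 8 fell on pine. The added falls were of genes 1102303, by 1.04, and 962127, by 1.12, both picked out after their values were seen. The cellulose reads of gene 1102303 were not recovered, and its call leaves their spread out. Over all tested genes the shift gave 100 rises and 170 falls on pine, in place of 122 and 146. In the main fit gene 939243 rose on both materials, by 1.27 ± 0.23 on wheat straw (SE; limma adjusted p = 0.000584) and by 1.21 ± 0.26 on pine (limma adjusted p = 0.0013). Its log2 values were 10.36, 10.16 and 10.43 on wheat straw and 10.33 and 10.19 on pine, against 9.21, 9.01 and 8.92 on cellulose, with 8.35, 8.52 and 8.47 on aspen. Wheat straw and pine overlapped, cellulose lay well below them, and aspen lay lowest. Gene 38420 rose by 1.07 ± 0.16 on wheat straw relative to cellulose (limma adjusted p = 0.000138), a difference of 0.88 without cellulose library C. Gene 942459 rose by 1.15 ± 0.17 on pine (limma adjusted p = 0.000321), and by 0.99 without pine library B.

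The 6 that fell on pine relative to cellulose included gene 971969, with a difference of -1.53 ± 0.33 (SE; limma adjusted p = 0.00158), and gene 963956, with -1.47 ± 0.32 (limma adjusted p = 0.00162). Relative to wheat straw, the same pair fell on pine, and 0 of the 43 rose (9.80% of tested genes fell and 7.38% rose; 85 fell and 64 rose, against 102 and 50 after the median shift). After that shift 5 of the 43 fell and 0 rose, the additional falls being of genes 242810, 913691 and 962127, each by 1.01 to 1.05 and also picked out after their values were seen. For gene 963956 the difference was -1.44 ± 0.32 (limma adjusted p = 0.00363), and for gene 971969 it was -1.20 ± 0.33 (limma adjusted p = 0.0124). With a single pine library the calls of this comparison were less firm. Without pine library A the adjusted p was 0.0526 for gene 963956 and 0.0524 for gene 971969, and without pine library B it was 0.105 for gene 971969.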

How the data were processed

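PolyA RNA-seq of 14 libraries was represented by 1 table of 878 genes with a log2 normalized read count per substrate, per the file headers. Per the submitters' processing notes, the tools were TopHat2, HTSeq and DESeq 1.5. Their settings, the genome build and how genes were chosen are not given in sources used here. Each deposited log2 column was treated as the authors' mean of log2(count × factor + 1) over the libraries of a substrate. Factors were searched until whole reads explained the lowest values (212 of 212 below level 4). Other values were then searched for whole reads within 6 (up to level 8), narrowing to 1 (up to level 13), of the mean, and pine throughout within 6. Only single solutions were used; 367 values were too high, 63 had several solutions and 7 had none. Libraries are named A, B and C in order of their factors, and no replicate number of the labels can be tied to one.

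Means are the deposited ones, and the spread came from recovered libraries, in a linear model with 1 mean per substrate and limma 3.58.1 moderation with a mean-variance trend (R 4.3.3; Python 3.11.15). Each gene had 1 spread, pooled over the 5 substrates, so unequal spreads were not modelled. Where a substrate was not recovered, its spread was assumed to be that of the others. The test took genes reaching level 4 in 2 or more libraries (867; all 43 members). P-values are two-sided and Benjamini-Hochberg adjusted over tested genes within each of 10 comparisons. Counting error was not modelled separately. The recovery and the fit were run on simulated data that took the factors as found and the same library spread on every substrate. The factor search and unequal spreads were therefore not checked. The members, lists and tests were chosen with earlier results of these data known. Named genes are the members with the 2 largest rises and falls per comparison, the largest gaps, the extremes of aspen level and the neighbours of each limit; others are said to be named after their values were seen. No gene lists by function could be made. Alternatives were another scaling, filter, pseudocount (5), trend, set of samples, fold limit and each library left out.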

Additional observations from a re-analysis of the deposited data

How the results depend on the processing

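The number of genes meeting the rule was 34 after a median shift, 20 after quantile normalization of the columns, 8 with a gap of at least 1, 98 with no limit on a single peak, 43 with no minimum level and 41 with a minimum of 6, and 39 to 46 without 1 library. With genes recovered in every library only (31 of the 43), the lost genes were not tested. Calls were 15 against 24 for aspen minus cellulose and 15 against 26 for aspen minus pine. They were 3 against 6 for cellulose minus maltose and 5 against 8 for pine minus cellulose. Quantile normalization of that set gave 15 lower than maltose (139 of 668 tested genes) and 11 than cellulose (100). It gave 17 lower than wheat straw (79) and 12 than pine (58). Without a minimum difference, 41 of the 43 were called lower than cellulose, where 363 of the 867 tested genes were. Aspen contrasts chose the genes. In comparisons without aspen, counts of the 43 precede those of all 867 tested genes. They were 20 and 604 for cellulose, 23 and 635 for wheat straw and 18 and 628 for pine, each minus maltose. Wheat straw minus cellulose had 9 and 323, pine minus cellulose 20 and 486, and pine minus wheat straw 13 and 326. The median shift lowers every pine value relative to the other substrates. It gave 5 calls for pine minus maltose (1 rise and 4 falls, against 2 and 0). For pine minus wheat straw it gave 5 (0 and 5, against 0 and 2). For pine minus cellulose it gave 2 and 8, against 2 and 6. Over all tested genes, aspen minus pine had 206 calls, and 448 without a minimum difference. Genes recovered in every library gave 124, and 113 after quantile normalization. Higher and lower calls follow for that set quantile normalized, that set without it, and the main fit. Aspen minus pine had 55 and 58, 33 and 91, and 63 and 143. Aspen minus cellulose had 95 and 100, 71 and 127, and 87 and 212. Aspen minus wheat straw had 67 and 79, 48 and 96, and 54 and 149. Cellulose minus maltose had 115 and 131, 134 and 120, and 225 and 146. Wheat straw minus maltose had 133 and 142, 149 and 135, and 245 and 167. Pine minus maltose had 125 and 140, 165 and 126, and 257 and 156. For cellulose and wheat straw against maltose, the smaller set alone was already close to even.

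Without 1 library the members called were 17 (without maltose library B) to 26 for aspen minus maltose, 15 to 24 for aspen minus cellulose, 20 to 28 for aspen minus wheat straw and 16 to 25 for aspen minus pine. They were 3 to 6 for cellulose minus maltose, 4 to 5 for wheat straw minus maltose, 2 to 3 for pine minus maltose, 2 to 3 for wheat straw minus cellulose and 5 to 9 for pine minus cellulose. For pine minus wheat straw they were 1 to 3, with 1 without pine library A. A left-out library drops genes not recovered on its substrate, so that 32 of the 43 were tested without a maltose, cellulose or straw library, and a lone pine library was assumed to vary like the other groups. Of 402 recomputed differences of named genes, 392 kept their call, 10 lost it and 0 changed sign. No paired analysis was possible because no recovered library can be tied to a replicate number. Depth limits the genes of few reads, and levels above 13 have no recovered spread outside pine.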
